A study of Mus musculus with 7 samples.

Results

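Beside the H19/Igf2 region, the mouse genome holds 3 further regions whose imprint is laid down as DNA methylation in the male germ line, and the genes they control are described here: Dlk1, Meg3, Rian, Mirg, Rtl1 and Dio3 of the Dlk1-Meg3 domain on chromosome 12, Rasgrf1 on chromosome 9, and Zdbf2 and Gpr1 on chromosome 1. The members were taken by name from the table of 20643 genes. Of the 9 genes listed, 7 matched a gene symbol of the table, Rian was found by its Ensembl identifier because the symbol of its row was blank, and Rtl1 was not analysed here. Values of 8 members in 7 libraries were therefore at hand.

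The study asked whether transcription through the H19/Igf2 imprinting control region is needed for that region to become methylated in fetal male germ cells. RNA-seq was done on EGFP+ prospermatogonia, the mitotically arrested male germ cells of the fetal testis, sorted at 15.5 days post coitum. There were 3 libraries of H19Ter+neo/H19Ter+neo fetuses, which carry a rabbit β-globin transcription terminator beside the control region on chromosome 7 together with a Pgkneo selection cassette, 2 libraries of H19Ter/H19Ter fetuses, in which Cre had removed Pgkneo and left the terminator, and 2 libraries of WT fetuses. All fetuses carried the Pou5f1 promoter-driven EGFP transgene of the TgOG2 mouse, which marks the cells that were sorted. Both mutant alleles go back to 129SI ES cells and a single ES cell line, the testes of several fetuses could be digested together, and the strain background of the WT fetuses was not given in the sources used here, so genotype and background cannot be told apart. No row of the table reads the inserted cassette, so the genotype labels were not checked against it. Nothing in the labels says that replicate libraries came from separate litters, so the p-values below measure the spread between these libraries.

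The libraries held 84104114 to 87326484 counted read pairs in H19Ter+neo, 37546716 to 51170458 in H19Ter and 45103957 to 45922224 in WT. Levels are given as CPM, counted read pairs relative to the scaled library total, and differences as log2 fold changes of the deposited log2 CPM with their standard error from limma, called where the p adjusted over all 20643 genes was under 0.05. The 19 germ cell markers examined summed to 6546 to 6813 CPM in H19Ter+neo, 5929 to 6095 CPM in H19Ter and 6219 to 6402 CPM in WT. Dazl, a translational regulator that germ cells need, stood at 928 to 1083 CPM in H19Ter+neo, 767 to 812 CPM in H19Ter and 1008 to 1160 CPM in WT, and was called lower in H19Ter than in WT (-0.45, limma, adjusted p = 0.0060). Of the 19 germ cell markers, 7 were called higher and 7 lower in H19Ter+neo than in WT, and 3 higher and 7 lower in H19Ter than in WT. The lower ones included, in H19Ter+neo and H19Ter against WT, Nanos2 (-1.12 and -0.51) and Kit (-0.89 and -0.72). Pou5f1, whose promoter drives the sorted transgene, was lower in H19Ter+neo (-0.66, limma, adjusted p = 0.00014) and was not called in H19Ter (-0.08). The higher ones included Dnmt3l (1.21 in H19Ter+neo and 1.20 in H19Ter), Piwil4 (0.85 and 0.47) and Tdrd9 (0.66 and 0.55). The part of these germ cell differences in those of the members was not tested. Genotype was accompanied by many differences in this table: with H19Ter+neo against WT 27.7% of all genes were called higher and 26.7% lower, with H19Ter against WT 14.1% higher and 11.0% lower, and with H19Ter+neo against H19Ter 12.5% higher and 15.2% lower. With the same total per library in place of the scaling factors, the higher genes made up 72.5% of those called for H19Ter against WT, where the main fit gave 56.2%, and 32.0% for H19Ter+neo against H19Ter, where it gave 45.3%, while the median over all genes moved by less than 0.1 on the log2 scale.

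In the Dlk1-Meg3 domain the copy inherited from the mother expresses the noncoding RNAs Meg3, Rian and Mirg from a shared strand, and the copy inherited from the father expresses the protein genes Dlk1, Rtl1 and Dio3, under the control of an intergenic region that is methylated on the paternal copy. Rasgrf1 is expressed from the paternal copy where a methylated region and a neighbouring repeat lie upstream of it. Zdbf2 is a paternally expressed gene, and a long form of its transcript starts far upstream, inside the body of Gpr1. That upstream start is not taken here to be methylated in the male germ line. In fetal prospermatogonia the parental imprints have been erased and paternal methylation is being laid down anew, so both copies of each gene may be active.

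Both windows below run from 250 bases before to 50 bases after a RefSeq start on GRCm38.p6, plus strand, the Meg3 window at chr12:109540746-109541045 and the window of the upstream Zdbf2 start at chr1:63200108-63200407. They are shown because Meg3 was higher in both mutants and Zdbf2 was not called in either. Capitals mark the hexamer TGCCGC, read on either strand (GCGGCA), which the imprint-protecting factor ZFP57 recognises when methylated, and the cAMP response element TGACGTCA.
Meg3: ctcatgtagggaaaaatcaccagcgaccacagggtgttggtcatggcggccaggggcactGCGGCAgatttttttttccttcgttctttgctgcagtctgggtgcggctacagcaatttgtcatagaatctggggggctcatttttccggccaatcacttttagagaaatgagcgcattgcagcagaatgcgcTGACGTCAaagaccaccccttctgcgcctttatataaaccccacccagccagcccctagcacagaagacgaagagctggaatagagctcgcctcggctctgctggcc
Zdbf2: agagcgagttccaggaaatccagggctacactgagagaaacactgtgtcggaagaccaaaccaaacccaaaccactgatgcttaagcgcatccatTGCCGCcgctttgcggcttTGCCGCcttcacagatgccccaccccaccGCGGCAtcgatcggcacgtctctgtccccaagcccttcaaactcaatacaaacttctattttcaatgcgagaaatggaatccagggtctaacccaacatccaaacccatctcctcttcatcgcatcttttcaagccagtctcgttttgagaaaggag
The Meg3 window held 13 CpG, 1 hexamer at base 61 and the cAMP response element at base 194 of the window. The upstream Zdbf2 window lay within the body of Gpr1 and held 15 CpG and 3 hexamers, at bases 96, 115 and 144. Of the 32851 RefSeq windows of this length, 11.6% held the hexamer and 1.79% the response element, and the median window held 7 CpG. In the other windows of the members there was no hexamer, and only the downstream Zdbf2 window, with 38 CpG, held the response element. A match is a description of the letters and not a site of binding.

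Of the 8 members, 6 were called higher in H19Ter+neo than in WT, Dlk1, Meg3, Rian, Mirg, Rasgrf1 and Gpr1, and the same 6 were called higher in H19Ter than in WT. None was called lower in either comparison, and Dio3 and Zdbf2 were not called. The background shares of genes called higher were 27.7% and 14.1% in these comparisons. In each of the 6 genes all 5 mutant libraries stood above both WT libraries, an arrangement found in 24.1% of all genes. The 2 mutants were compared with the same WT libraries, so these counts are not independent of each other. Nor are the members separate cases, as Dlk1, Meg3, Rian and Mirg lie in the same domain. The members were also chosen with earlier results of these data known. The median log2 fold change over the 8 members was 0.96 for H19Ter+neo against WT and 0.86 for H19Ter against WT, where the medians over all genes were 0.01 and -0.01. The values of every library are in the plot of member levels.

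**Figure D1:**
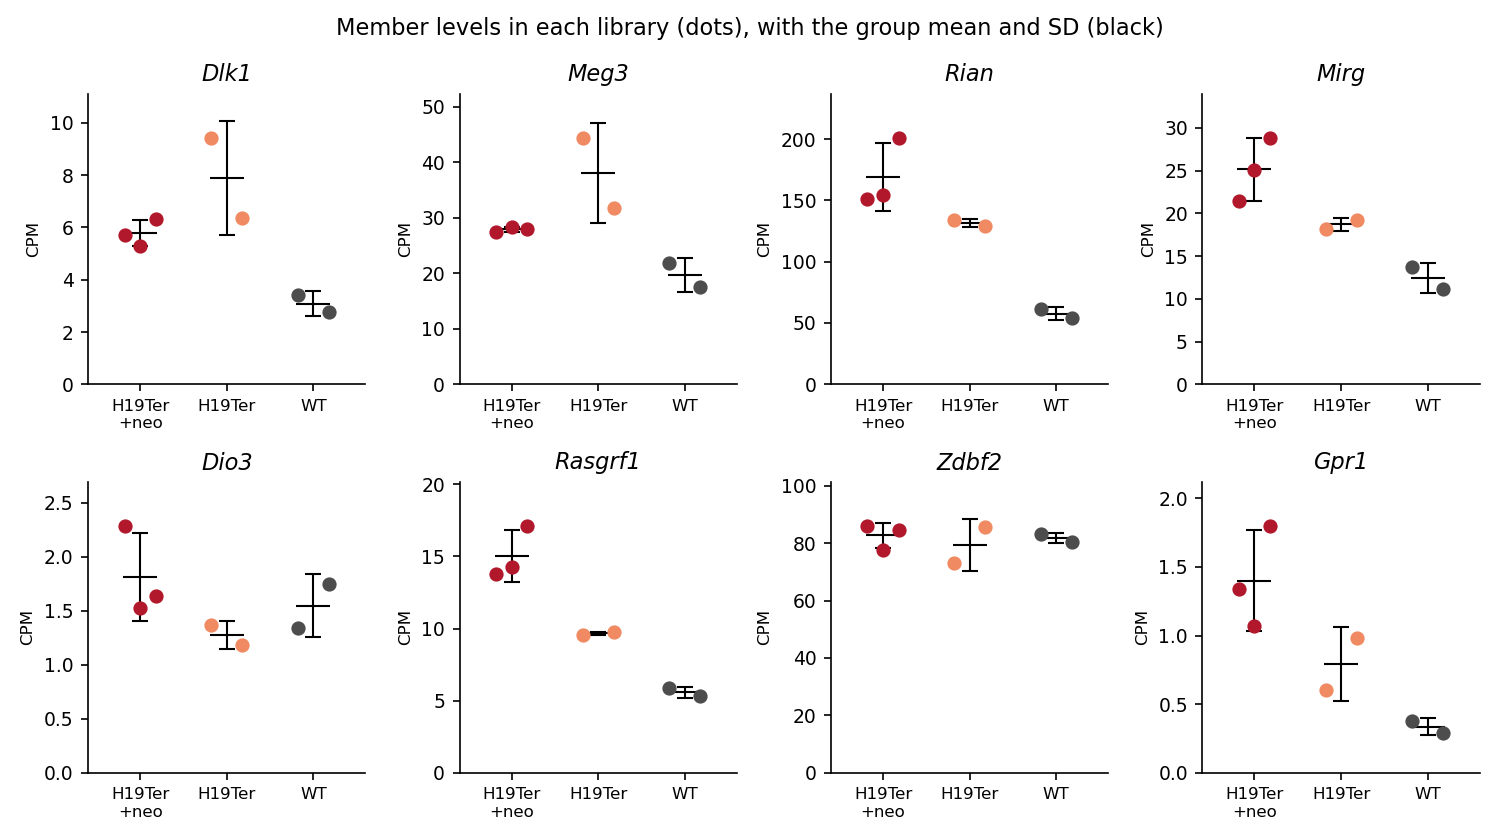
Levels of the 8 members (CPM, each panel from 0) in H19Ter+neo, H19Ter and WT prospermatogonia. Dots are libraries and black marks the group mean and SD (n = 3, 2 and 2); in 6 panels every mutant library lies above both WT libraries, while Zdbf2 stays between 73.1 and 85.8 CPM in all of them.

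Dlk1, a transmembrane protein related to NOTCH ligands that holds precursor cells back from differentiation, lies at 109452823 to 109463336 of chromosome 12 (mm10, plus strand). It stood at 5.73, 5.30 and 6.32 CPM in H19Ter+neo, 9.43 and 6.35 CPM in H19Ter, and 3.42 and 2.76 CPM in WT. H19Ter replicate 3 was the highest library, and the groups did not overlap. The log2 fold change was 0.90 ± 0.18 (SE) for H19Ter+neo against WT (limma, adjusted p = 0.0021) and 1.32 ± 0.20 for H19Ter against WT (limma, adjusted p = 0.0022). For H19Ter+neo against H19Ter it was -0.42 ± 0.18 (limma, adjusted p = 0.11), with a 95% interval of -0.83 to -0.01. Between the mutants and WT the calls held under all 18 alternative settings of each comparison.

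Meg3, a long noncoding RNA and the first transcript of the maternally expressed strand, lies at 109541001 to 109571726 of chromosome 12 (plus strand). Its libraries gave 27.4, 28.3 and 28.0 CPM in H19Ter+neo, 44.4 and 31.7 CPM in H19Ter, and 21.8 and 17.6 CPM in WT. The 3 H19Ter+neo libraries lay close together, between those of H19Ter and those of WT. The log2 fold change was 0.51 ± 0.14 for H19Ter+neo against WT (limma, adjusted p = 0.0096) and 0.94 ± 0.15 for H19Ter against WT (limma, adjusted p = 0.0027). In H19Ter+neo this call held under 17 of 18 alternatives. It was lost with WT replicate 2 left out, where the value was 0.35 and WT replicate 1 stood alone. Of its 18089 exonic bases, 98.5% were free of other genes on the same strand, and 6.8% were overlapped by Gm26906 on the opposite strand.

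Rian, the host of a large array of C/D-box small nucleolar RNAs, lies at 109603940 to 109661716 of chromosome 12 (plus strand). It reached 151, 155 and 201 CPM in H19Ter+neo, 134 and 129 CPM in H19Ter, and 61.7 and 53.7 CPM in WT. Every mutant library was more than 2-fold above both WT libraries. Rian rose by 1.54 ± 0.11 for H19Ter+neo against WT (limma, adjusted p = 1.0e-05) and 1.19 ± 0.13 for H19Ter against WT (limma, adjusted p = 0.00046). Both calls held under all 18 alternatives.

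Mirg, the most distal of the 3 noncoding RNAs and the host of a microRNA cluster, lies at 109729764 to 109749460 of chromosome 12 (plus strand). It gave 21.5, 25.1 and 28.8 CPM in H19Ter+neo, 18.2 and 19.2 CPM in H19Ter, and 13.7 and 11.2 CPM in WT, without overlap between the groups. Mirg rose by 1.01 ± 0.13 for H19Ter+neo against WT (limma, adjusted p = 0.00016) and 0.60 ± 0.14 for H19Ter against WT (limma, adjusted p = 0.015). The H19Ter call was lost under 5 of 18 alternatives, among them voom (limma, adjusted p = 0.052) and the fit without WT replicate 2 (0.45, limma, adjusted p = 0.14), without H19Ter replicate 3 (0.64, limma, adjusted p = 0.060) or without H19Ter replicate 4 (0.56, limma, adjusted p = 0.094).

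Dio3, the deiodinase that inactivates thyroid hormone, lies at 110279068 to 110281097 of chromosome 12 (plus strand), at the far end of the domain. It was low in every library, with 2.28, 1.53 and 1.63 CPM in H19Ter+neo, 1.37 and 1.19 CPM in H19Ter, and 1.34 and 1.75 CPM in WT. Each mutant group overlapped WT. The log2 fold change was 0.22 ± 0.24 for H19Ter+neo against WT (limma, adjusted p = 0.46), with a 95% interval of -0.31 to 0.75, and -0.26 ± 0.26 for H19Ter against WT (limma, adjusted p = 0.50), with a 95% interval of -0.84 to 0.32. Dio3os, the RNA of the opposite strand next to Dio3, was named after its values were seen. It stood at 1.01, 0.94 and 1.12 CPM in H19Ter+neo, 0.75 and 0.88 CPM in H19Ter, and 1.36 and 1.73 CPM in WT. It was called lower in H19Ter than in WT (log2 fold change -0.89 ± 0.26, limma, adjusted p = 0.030) and was not called in H19Ter+neo (-0.57 ± 0.23, limma, adjusted p = 0.059).

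Rasgrf1, a guanine nucleotide exchange factor that activates RAS and is best known from neurons, lies at 89909908 to 90026977 of chromosome 9 (plus strand). It gave 13.8, 14.2 and 17.1 CPM in H19Ter+neo, 9.58 and 9.75 CPM in H19Ter, and 5.85 and 5.32 CPM in WT. The 3 groups were separate, with H19Ter between the others. Rasgrf1 rose by 1.42 ± 0.12 for H19Ter+neo against WT (limma, adjusted p = 1.8e-05) and 0.79 ± 0.13 for H19Ter against WT (limma, adjusted p = 0.0033). Its calls in all 3 comparisons held under all 18 alternatives of each.

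Zdbf2, a zinc finger gene that supports growth after birth, lies at 63273265 to 63314576 of chromosome 1 (plus strand). It had 85.8, 77.7 and 84.7 CPM in H19Ter+neo, 73.1 and 85.7 CPM in H19Ter, and 83.05 and 80.4 CPM in WT. Both mutant groups overlapped WT. The log2 fold change was 0.02 ± 0.08 for H19Ter+neo against WT (limma, adjusted p = 0.88), with a 95% interval of -0.16 to 0.20, and -0.05 ± 0.09 for H19Ter against WT (limma, adjusted p = 0.73), with a 95% interval of -0.24 to 0.15. After correction for a GC and length trend, the first value was -0.22 and called lower (limma, adjusted p = 0.026). Of the members Zdbf2 varied least, with an SD of 0.09 over the 7 log2 values.

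Gpr1, a receptor for the chemoattractant chemerin, lies at 63182691 to 63214543 of chromosome 1 on the minus strand, beside Zdbf2 and pointing away from it. It was the least abundant member, with 109, 93 and 155 read pairs in H19Ter+neo, 32 and 38 in H19Ter, and 17 and 13 in WT. In CPM these were 1.34, 1.07 and 1.80 in H19Ter+neo, 0.60 and 0.98 in H19Ter, and 0.38 and 0.29 in WT. The groups did not overlap. The log2 fold change was 1.94 ± 0.32 for H19Ter+neo against WT (limma, adjusted p = 0.00062), the highest of any member, and 1.13 ± 0.35 for H19Ter against WT (limma, adjusted p = 0.039). The H19Ter call was lost under 7 of 17 alternatives, among them voom (limma, adjusted p = 0.15), libraries thinned to the same depth (limma, adjusted p = 0.057), and the fits without WT replicate 1 (1.30), without WT replicate 2 (0.96) or without H19Ter replicate 4 (0.79). Platr12, a noncoding RNA that GENCODE places on the opposite strand inside the Gpr1 body close to the upstream Zdbf2 start, had 0.37, 0.57 and 0.60 CPM in H19Ter+neo, 0.21 and 0.49 CPM in H19Ter, and 0.25 and 0.38 CPM in WT, and was not called (limma, adjusted p = 0.21 and 0.94 for H19Ter+neo and H19Ter against WT).

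**Figure D2:**
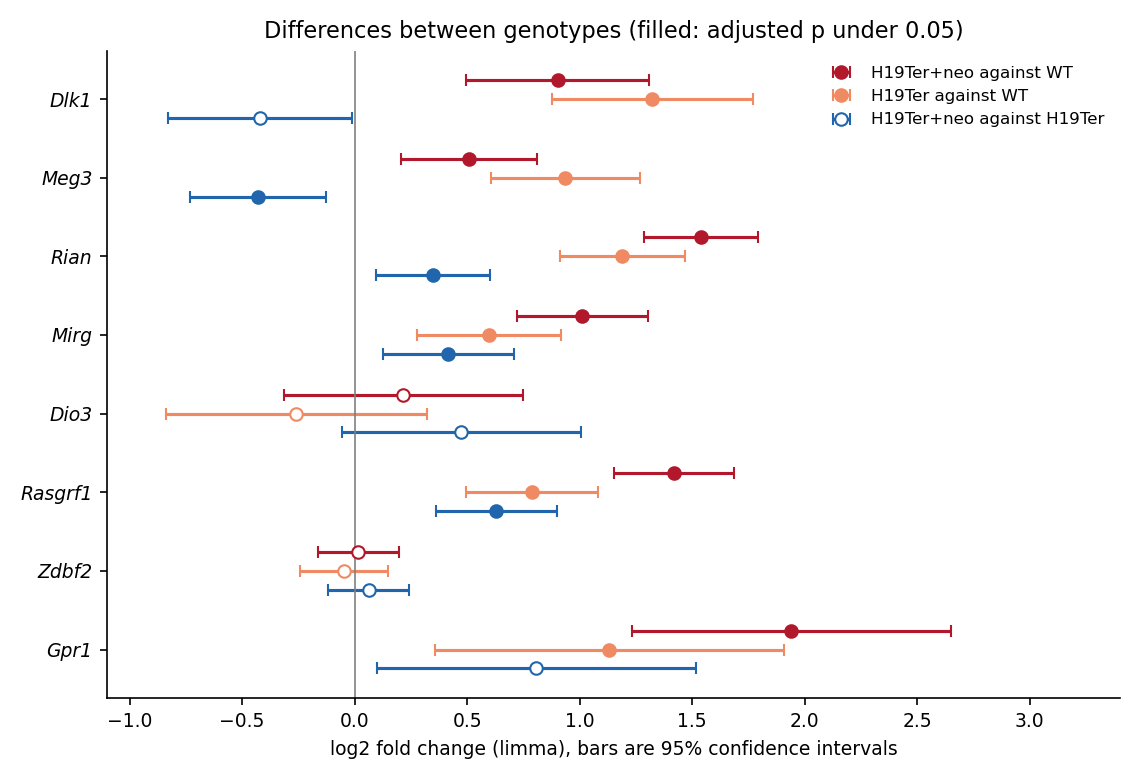
Log2 fold changes of the 8 members (limma) in the 3 comparisons, with 95% confidence intervals; filled marks have an adjusted p under 0.05. Against WT the filled marks all lie right of 0 (0.51 to 1.94), while between the mutants Meg3 (-0.43) lies left and Rian (0.35), Mirg (0.42) and Rasgrf1 (0.63) lie right.

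Between the mutants the members did not move one way. The mutants differ by the Pgkneo cassette and by the cross to a Cre line that removed it, which cannot be told apart. They also differ in sequencing depth. In H19Ter+neo against H19Ter, 3 members were called higher, Rasgrf1 (0.63 ± 0.12, limma, adjusted p = 0.0043), Mirg (0.42 ± 0.13, limma, adjusted p = 0.039) and Rian (0.35 ± 0.11, limma, adjusted p = 0.045), and 1 was called lower, Meg3 (-0.43 ± 0.14, limma, adjusted p = 0.040). The background was 12.5% of genes higher and 15.2% lower. Gpr1 (0.81 ± 0.32, limma, adjusted p = 0.085), Dio3 (0.48 ± 0.24, limma, adjusted p = 0.17) and Zdbf2 (0.06 ± 0.08, limma, adjusted p = 0.60) were not called, and neither was Dlk1. With the same total per library 2 members were called, 1 of them higher. The Rian call was lost under 12 of 18 alternatives, the Mirg call under 8 and the Meg3 call under 7. Without H19Ter replicate 3 the Meg3 difference was -0.19 (limma, adjusted p = 0.39), and 1 member, Rasgrf1, was called.

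Ratios between RNAs of one library do not depend on how libraries are scaled. The log2 ratio of Rian to Meg3 was 2.46, 2.45 and 2.85 in H19Ter+neo, 1.59 and 2.02 in H19Ter, and 1.501 and 1.61 in WT. The H19Ter+neo libraries stood above the other 4, while one H19Ter library fell among those of WT. The ratio of Mirg to Meg3 was -0.35, -0.17 and 0.04 in H19Ter+neo, -1.29 and -0.72 in H19Ter, and -0.67 and -0.66 in WT. Here H19Ter replicate 3 was the lowest, while H19Ter replicate 4 lay close to WT. The ratio of Dlk1 to Meg3, a pair expressed from opposite parental copies where the imprint is in place, was -2.26, -2.42 and -2.15 in H19Ter+neo, -2.24 and -2.32 in H19Ter, and -2.67 and -2.67 in WT. All 5 mutant libraries had more Dlk1 per Meg3 than WT, and the mutant groups overlapped. These ratios are a description, with no test.

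**Figure D3:**
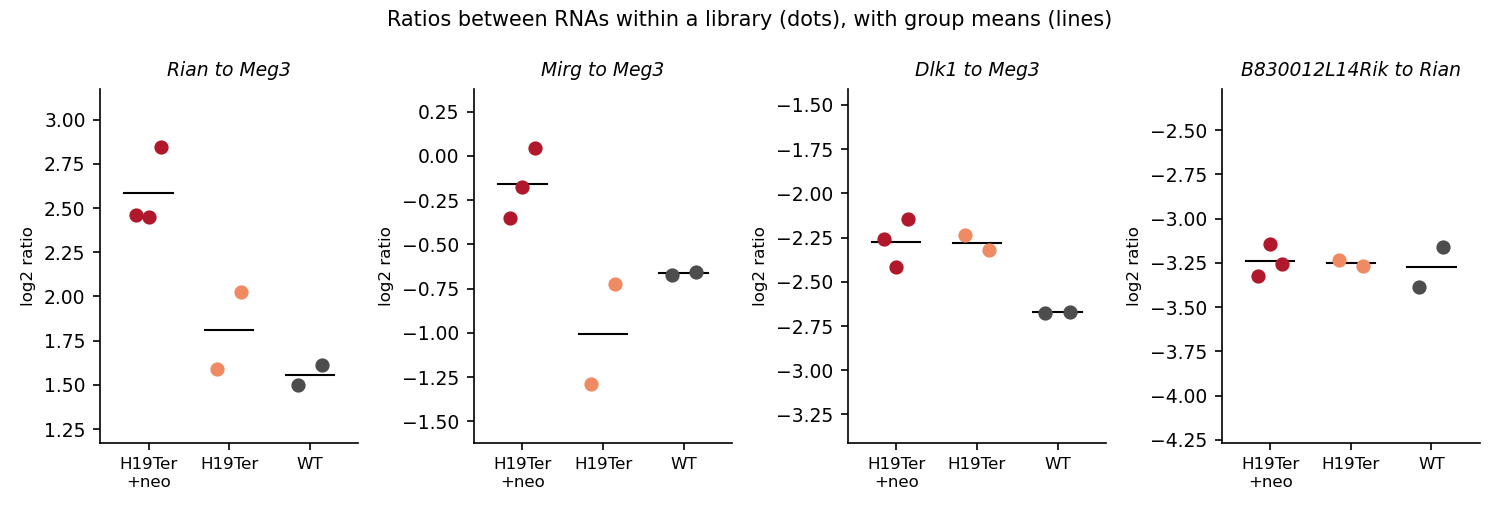
Log2 ratios of RNAs of the Dlk1-Meg3 domain within each library (dots) with group means (lines) for H19Ter+neo, H19Ter and WT; all panels span 2 log2 units. Rian to Meg3 is highest in the 3 H19Ter+neo libraries (2.45 to 2.85), while B830012L14Rik to Rian stays between -3.39 and -3.14 in all 7.

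The rows between Meg3 and Mirg on chromosome 12 had the same direction as these RNAs, while rows farther out went either way. Within 500 kb of a domain member, 20 of 134 annotated genes had a value. Of the 5 lying between the start of Meg3 and the end of Mirg, all on the plus strand, 4 were called higher in H19Ter+neo than in WT and 5 in H19Ter than in WT. Among these 5, Mir341, Mir1188 and Gm24564 lie within the body of Rian, itself called higher, and are not separate cases. They had 3 to 14 read pairs in the WT libraries. Of the 15 others, 1 was called higher and 5 lower in H19Ter+neo, and 1 higher and 2 lower in H19Ter. Of all genes, 27.7% were called higher and 26.7% lower in H19Ter+neo, and 14.1% and 11.0% in H19Ter. B830012L14Rik, a noncoding RNA between Rian and Mirg, had 15.1, 17.5 and 21.02 CPM in H19Ter+neo, 14.3 and 13.4 CPM in H19Ter, and 5.90 and 6.02 CPM in WT (log2 fold change 1.57 ± 0.13 for H19Ter+neo against WT, limma, adjusted p = 1.8e-05). Its log2 ratio to Rian varied from -3.39 to -3.14 over the 7 libraries. Gm37899, between Rian and B830012L14Rik, had 11.1, 12.3 and 15.0 CPM in H19Ter+neo, 10.3 and 10.3 CPM in H19Ter, and 5.40 and 3.66 CPM in WT. The single gene called higher outside the stretch was Gm34081, an RNA of the minus strand between Dlk1 and Meg3 that was named after its values were seen (0.82 ± 0.26 in H19Ter+neo, limma, adjusted p = 0.021, and 1.41 ± 0.28 in H19Ter, limma, adjusted p = 0.0073). These rows lie on the path of the long noncoding RNAs and may read the same precursor, which was not tested.

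**Figure D4:**
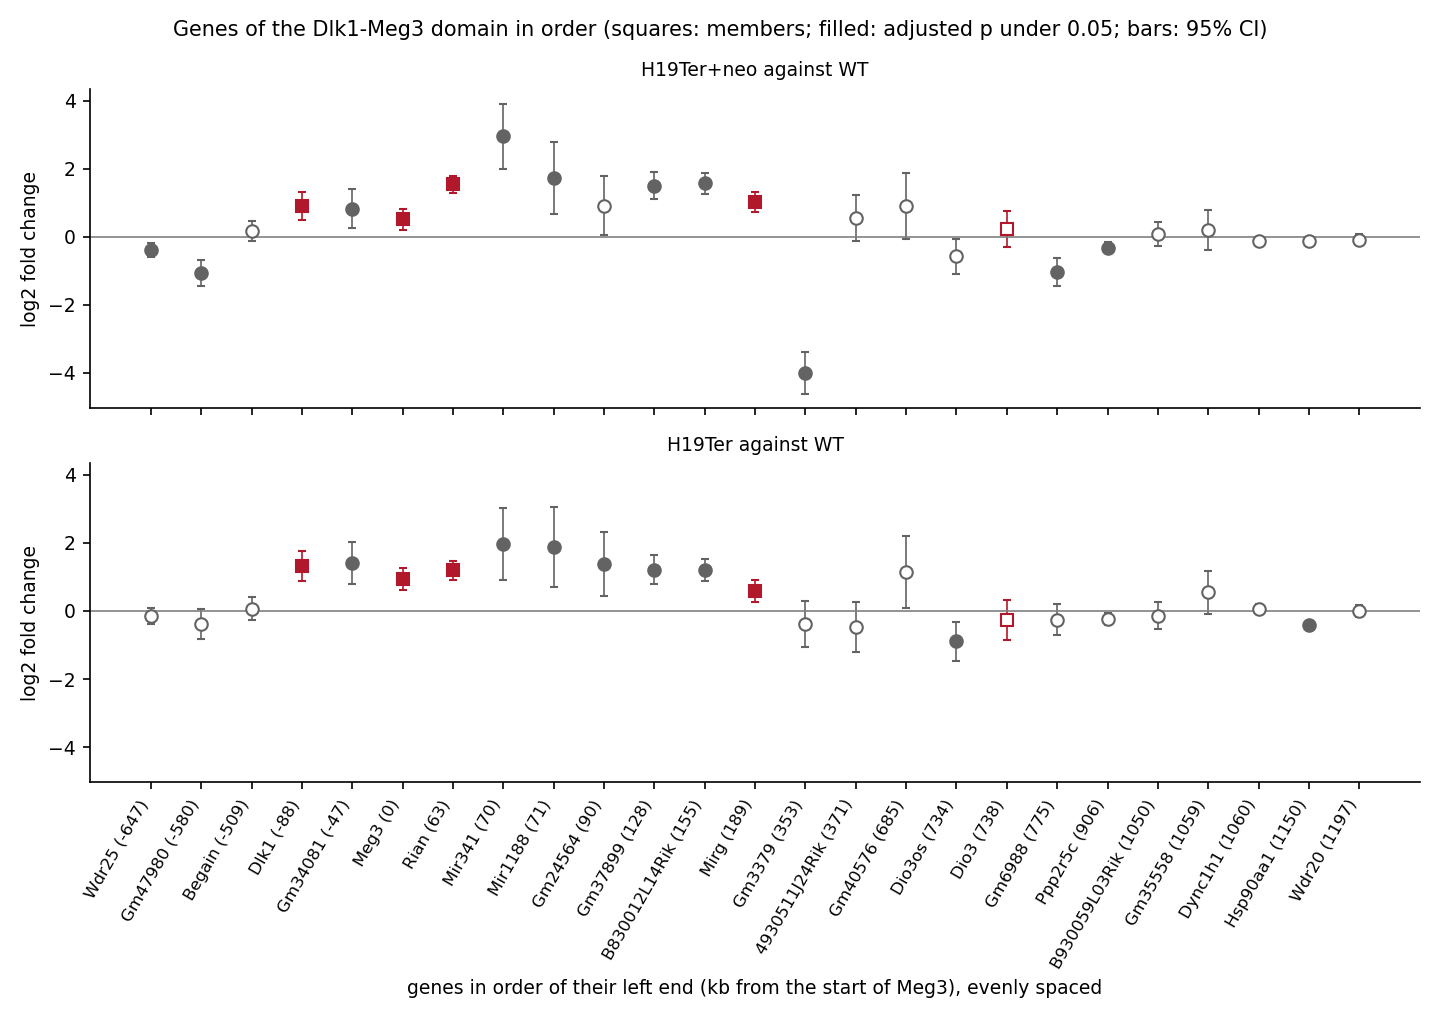
Log2 fold changes (limma) against WT with 95% confidence intervals for every gene with a value within 500 kb of the Dlk1-Meg3 domain members, in order along the chromosome, with H19Ter+neo above and H19Ter below. Squares are members and filled marks have an adjusted p under 0.05; from Dlk1 to Mirg all marks lie above 0, and Dio3 is not called in either panel.

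Small RNA genes of the domain could be read in part. RefSeq places 58 microRNA hairpins between the start of Dlk1 and the end of Dio3, of which 2 had a value, Mir341 and Mir1188, both within the body of Rian. Their mature RNAs are shown because the rows named after them were called higher in both mutants, with the seed (bases 2 to 8) in capitals, from RefSeq on GRCm38.p6.
mmu-miR-341-5p: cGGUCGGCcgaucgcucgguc
mmu-miR-341-3p: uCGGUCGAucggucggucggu
mmu-miR-1188-5p: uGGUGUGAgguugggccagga
mmu-miR-1188-3p: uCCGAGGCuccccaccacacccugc
None of these 4 seeds was shared with another mature RNA of the domain or of the RefSeq table. The Mir341 row (chr12:109611500-109611595, plus strand) had 73, 123 and 134 read pairs in H19Ter+neo, 34 and 23 in H19Ter, and 11 and 3 in WT. Its log2 fold change was 2.95 ± 0.43 for H19Ter+neo against WT (limma, adjusted p = 0.00032) and 1.96 ± 0.48 for H19Ter against WT (limma, adjusted p = 0.016). The Mir1188 row (chr12:109611822-109611941, plus strand) had 42, 45 and 64 read pairs in H19Ter+neo, 35 and 25 in H19Ter, and 14 and 3 in WT, with log2 fold changes of 1.73 ± 0.48 (limma, adjusted p = 0.011) and 1.88 ± 0.53 (limma, adjusted p = 0.027) in the same order. In libraries of sheared total RNA such read pairs come from RNAs longer than a mature microRNA, and the microRNAs themselves were not measured.

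Counts around the other members are set against all genes, of which 27.7% were higher and 26.7% lower in H19Ter+neo against WT, and 14.1% and 11.0% in H19Ter against WT. With 7 and 13 neighbours, nothing particular to these surroundings is read from them. Of 7 neighbours of Rasgrf1 with a value, 3 were called higher and 2 lower in H19Ter+neo than in WT, and 1 higher and none lower in H19Ter than in WT. Ctsh, a lysosomal protease gene next to Rasgrf1, was higher in H19Ter+neo than in WT (1.81 ± 0.39, limma, adjusted p = 0.0031) at 13 and 6 read pairs in the WT libraries, and so was Minar1 (0.59 ± 0.15, limma, adjusted p = 0.0081), while Morf4l1, a chromatin reader, was lower (-0.46 ± 0.07, limma, adjusted p = 0.00034). Of 13 neighbours of Zdbf2 and Gpr1, 5 were called higher and 4 lower in H19Ter+neo, and 2 higher and 4 lower in H19Ter. Ino80d, a subunit of a chromatin remodelling complex, was lower in H19Ter+neo (-0.46 ± 0.06, limma, adjusted p = 0.00016) and in H19Ter (-0.39 ± 0.07, limma, adjusted p = 0.0034) than in WT, as were the neighbouring RNAs Gm20342 (-0.88 and -0.51) and Ino80dos (-0.48 and -0.71), whereas Dytn, with 7 and 8 read pairs in WT, was higher in H19Ter+neo (1.76 ± 0.34, limma, adjusted p = 0.0017). Hsp90aa1, a chaperone gene at the far end of the chromosome 12 window, was lower in H19Ter than in WT (-0.41 ± 0.06, limma, adjusted p = 0.0014). The processed pseudogenes Gm3379 and Gm16200 fell in H19Ter+neo (-4.00 and -2.08) and not in H19Ter (-0.39 and -0.18), but reads of processed pseudogenes can be shared with their parent genes and are uncertain.

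Per kb of exon the members ranked, as means over the 7 libraries, Rian at 6.93 CPM per kb, Zdbf2 at 6.44, Mirg at 2.698, Meg3 at 1.57, Dlk1 at 0.99, Rasgrf1 at 0.98, Dio3 at 0.78 and Gpr1 at 0.37. The order of neighbours was kept in all 7 libraries between Zdbf2 and Mirg, Mirg and Meg3, Meg3 and Dlk1, and Dio3 and Gpr1. Rian lay above Zdbf2 in 5 libraries, Dlk1 above Rasgrf1 in 4 and Rasgrf1 above Dio3 in 5, and each of these turns followed genotype. Dlk1 lay below Rasgrf1 in the 3 H19Ter+neo libraries and above it in the H19Ter and WT libraries. In WT replicate 2, however, Dlk1 and Rasgrf1 were nearly level, at 0.488 and 0.481 CPM per kb. Rasgrf1 lay above Dio3 in all 5 mutant libraries and below it in both WT libraries. In H19Ter+neo Rian stood at 9.26 ± 1.53 CPM per kb (SD, n = 3) and in WT at 3.17 ± 0.31 (SD, n = 2), against 6.54 ± 0.35 and 6.46 ± 0.15 for Zdbf2, which places Zdbf2 below Rian in H19Ter+neo and above it in WT.

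Likeness across libraries was measured as the SD of the log2 ratio of another gene to the member over the 7 libraries, among 14204 genes with a mean log2 CPM of at least 1. Closest to Dlk1 were Phldb1 (0.07), Mmel1 (0.15) and Col26a1 (0.17), with Meg3 at rank 18 (0.21). Closest to Meg3 were Nkd2 (0.12), Ccn4 (0.12) and Myrf (0.14), with Dlk1 at rank 72. Rian was followed most closely by Cdhr2 (0.07), Dpep3 (0.08) and Mex3b (0.08), with Rasgrf1 at rank 106 (0.18). Mirg was followed by Fam78b (0.05), Napb (0.06) and Otoa (0.06), and Rasgrf1 by Slc24a2 (0.05), Pex5l (0.06) and A330076H08Rik (0.07). Zdbf2 was followed by 2610008E11Rik (0.02), Syt14 (0.03) and Prkacb (0.04). Thus Dlk1 and Meg3 tracked each other more closely than either tracked Rian (0.42 and 0.53) or Mirg (0.44 and 0.43), and Rian, Mirg and Rasgrf1 differed from one another by 0.18 to 0.28. These are descriptions over 7 libraries of 3 genotypes.

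Some RNA of other testis cell types was present. In these bulk libraries, more cells of a type and more RNA per cell cannot be told apart. The 16 interstitial and peritubular markers had median log2 CPM of 2.32, 1.12 and 1.17 in H19Ter+neo, 2.85 and 1.83 in H19Ter, and 1.68 and 1.85 in WT, and summed to 272 to 324, 378 to 450 and 424 to 439 CPM in the same order of groups. Ptch1, a hedgehog receptor, made up most of these sums, with 216, 234 and 196 CPM in H19Ter+neo, 295 and 294 CPM in H19Ter, and 354 and 355 CPM in WT, and was called lower in both mutants than in WT. Pdgfra, a receptor of mesenchymal cells, was between 14.1 and 22.2 CPM over all libraries. The 7 Leydig markers with a value had medians of 2.53, 0.52 and -0.39 in H19Ter+neo, 2.44 and 1.12 in H19Ter, and 0.92 and 1.64 in WT. Star, the cholesterol carrier of steroidogenic cells, was between 2.72 and 7.14 CPM. Dlk1, which fetal Leydig cells and other mesenchymal cells are known to express, was highest in the library with the highest interstitial median, H19Ter replicate 3, as was Meg3. In H19Ter+neo, Dlk1 was 5.73 CPM in replicate 5, with the highest Leydig median, and 6.32 CPM in replicate 7, with the lowest. In H19Ter, Dlk1 was 9.43 CPM in replicate 3 (Leydig median 2.44) and 6.35 CPM in replicate 4 (1.12). In WT it was 3.42 CPM in replicate 1 (0.92) and 2.76 CPM in replicate 2 (1.64). The 12 Sertoli markers summed to 32.8 to 42.0, 37.97 to 44.7 and 34.8 to 36.5 CPM in H19Ter+neo, H19Ter and WT, the 8 endothelial markers with a value to 42.2 to 48.2, 44.0 to 44.6 and 30.1 to 30.4 CPM, the 3 macrophage markers to 5.75 to 6.51, 6.84 to 7.72 and 4.78 to 5.72 CPM, and the 2 erythroid markers to 5.05 to 6.53, 3.33 to 3.96 and 1.80 to 3.10 CPM. No marker with a value was at 0 read pairs in any library. Endothelial, macrophage and erythroid sums were thus higher in all 5 mutant libraries than in WT, with 6 of 8, 2 of 3 and 2 of 2 markers called higher in H19Ter+neo and 2 of 8, 1 of 3 and 0 of 2 in H19Ter, where 27.7% and 14.1% of all genes were called higher. Of the interstitial, Sertoli and Leydig markers, 3, 2 and 0 were called higher and 3, 2 and 1 lower in H19Ter+neo, and 2, 2 and 0 higher and 1, 1 and 0 lower in H19Ter. The part of these cell types in the differences of the members was not tested. In an alternative fit the libraries highest in interstitial or Leydig markers, H19Ter replicate 3 and H19Ter+neo replicate 5, were left out. It leaves H19Ter with replicate 4 alone and is not a test of any cell type.

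**Figure D5:**
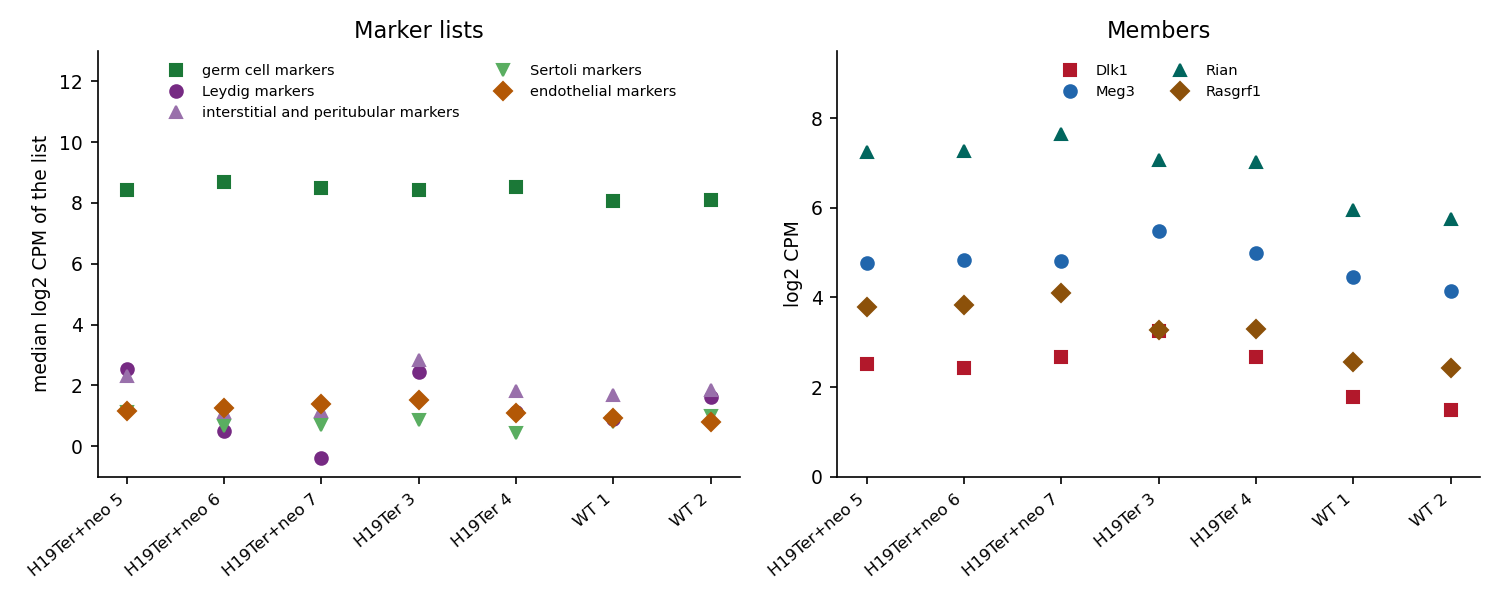
Left, median log2 CPM of marker lists in each library, and right, log2 CPM of Dlk1, Meg3, Rian and Rasgrf1 in the same libraries, in the order H19Ter+neo, H19Ter, WT. Germ cell markers lie between 8.06 and 8.67 in every library and the other lists below 3, with the highest interstitial median (2.85) in H19Ter replicate 3, where Dlk1 and Meg3 also peak.

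Proteins that write, protect or remove methylation at paternally methylated regions were examined as a list of 21 genes, chosen with earlier results of these data known. In H19Ter+neo against WT 9 were called higher and 9 lower, with a median log2 fold change of 0.25 (0.01 over all genes), and in H19Ter against WT 7 higher and 4 lower, with a median of 0.09 (-0.01 over all genes). The shares of all genes were 27.7% higher and 26.7% lower in H19Ter+neo, and 14.1% and 11.0% in H19Ter. The genes named here were called in the same direction in both mutants. Dnmt3l, the cofactor of de novo methylation, averaged 91.1 ± 10.5 CPM in H19Ter+neo (SD, n = 3), 90.1 ± 5.9 CPM in H19Ter (SD, n = 2) and 39.4 ± 5.3 CPM in WT (SD, n = 2), with log2 fold changes of 1.21 ± 0.11 (limma, adjusted p = 2.3e-05) and 1.20 ± 0.12 (limma, adjusted p = 0.00033) in the mutants against WT. Kdm1b, a histone H3K4 demethylase, rose by 1.09 ± 0.08 in H19Ter+neo (limma, adjusted p = 9.5e-06) and by 0.48 in H19Ter, and Piwil4, which guides methylation of transposons through piRNAs, by 0.85 ± 0.09 (limma, adjusted p = 5.5e-05) and 0.47. Tet3, an enzyme that oxidises 5-methylcytosine, rose by 0.50 in H19Ter+neo and by 0.74 ± 0.10 in H19Ter (limma, adjusted p = 0.0011), and its relative Tet1 fell by 1.25 ± 0.12 in H19Ter+neo (limma, adjusted p = 3.7e-05) and by 0.73 in H19Ter. Trim28, the corepressor that ZFP57 brings to imprinted regions, was lower in H19Ter+neo (-0.62 ± 0.07, limma, adjusted p = 9.3e-05) and in H19Ter (-0.34).

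Partners of the members' proteins were read against the same background of 27.7% of genes higher and 26.7% lower in H19Ter+neo, and 14.1% and 11.0% in H19Ter. Of 15 genes with a value among NOTCH receptors, their ligands and targets, and thyroid hormone genes, 3 were called higher and 5 lower in H19Ter+neo against WT, and 4 higher and 3 lower in H19Ter against WT. The receptors Notch2 and Notch3 were lower in H19Ter+neo than in WT (-0.68 ± 0.06, limma, adjusted p = 2.6e-05, and -1.49 ± 0.15, limma, adjusted p = 4.4e-05) and in H19Ter (-0.44 and -0.66), and the ligand Jag1 was higher in H19Ter+neo (0.40) and in H19Ter than in WT (0.90 ± 0.12, limma, adjusted p = 0.0014). Of 12 RAS and RAS exchange factor genes, 6 were called higher and 3 lower in H19Ter+neo against WT, and 5 higher and 3 lower in H19Ter against WT. The exchange factor Rasgrp2 (1.28 ± 0.18, limma, adjusted p = 0.00022) and the GTPase Rras (0.94 ± 0.09, limma, adjusted p = 3.0e-05) were higher in H19Ter+neo than in WT, and Nras was lower (-0.44 ± 0.06, limma, adjusted p = 0.00019), and all 3 were called in the same direction in H19Ter (1.10, 0.32 and -0.28). In H19Ter+neo against H19Ter, the methylation list had 3 genes called higher and 6 lower, the NOTCH and thyroid list 1 and 4, and the RAS list 2 and 1. In this comparison 12.5% of all genes were called higher and 15.2% lower.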

How the data were processed

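RNA-seq of FACS-sorted 15.5 dpc prospermatogonia was taken from the deposited table of 20643 genes and 7 libraries. Per the labels and the study's methods, total RNA was depleted of rRNA, sheared and sequenced as read pairs, trimmed with Trim Galore 0.6.0 and aligned and counted with STAR 2.7.8 on mm10. The deposited values are log2 CPM, which the authors made with edgeR scaling factors and a prior count of 2. Neither the gene annotation used for counting nor whether strand was used is given in the sources used here, so reads of antisense neighbours may not be separable. Read pairs were recovered from the log2 values (100% of values whole within 1e-06) and used for depths and alternatives only.

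limma 3.58.1 in R 4.3.3 (eBayes with trend, genotype as the only term, all 7 libraries, two-sided, Benjamini-Hochberg over all genes) was run on the deposited values with no filter, and was tested on simulated data. Genes were placed with GENCODE vM21, which named 20610 of 20643 rows. Sequences came from RefSeq GRCm38.p6. Named neighbours were up to 4 per domain with the smallest p, and named listed genes up to 6 of the methylation list and up to 3 of each other list. The members and all lists were chosen with earlier results of these data known. Alternatives were other scalings, prior counts of 0.5 and 5, a filter, voom, no trend, 2 groups only, thinning to 37546716 read pairs, removal of a GC and length trend, and each library left out. Read counts carry no molecular identifiers, so depth covers counting error only.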

Additional observations from a re-analysis of the deposited data

Results flagged for a closer look

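In 4 members the difference from WT differed between the 2 mutants under the main settings, by the test of H19Ter+neo against H19Ter itself (limma, adjusted over all genes). Meg3 rose less in H19Ter+neo than in H19Ter (difference -0.43, limma, adjusted p = 0.040). Rian (0.35, limma, adjusted p = 0.045), Mirg (0.42, limma, adjusted p = 0.039) and Rasgrf1 (0.63, limma, adjusted p = 0.0043) rose more in H19Ter+neo. Of 18 alternatives, the Rian call was lost under 12, the Mirg call under 8 and the Meg3 call under 7, and the Meg3 difference was -0.19 without H19Ter replicate 3, while the Rasgrf1 call held under all 18. The size of each difference does not use the WT libraries. The p-values do, because the fit shares its estimate of spread over all 7 libraries. Groups of 2 and 3 libraries were too small to be searched for single libraries far from the others.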

How the results depend on the processing

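Against WT, 6 of 8 members were called under the main settings, and 4 to 6 in H19Ter and 5 to 7 in H19Ter+neo under the alternatives. Of 429 alternative values of members, 376 kept their direction and side of the threshold, 40 lost the call, 1 gained it and 12 changed sign. All 12 sign changes were of Zdbf2, which was not called in the main fit, and 1 of them passed the threshold. For H19Ter against WT it was 0.0323 with the same total per library and 0.068 without the libraries highest in somatic markers, and with single libraries left out -0.162 to 0.068. For H19Ter+neo against WT it was -0.22 with the GC and length trend removed (limma, adjusted p = 0.026) and -0.011 without those libraries, and with single libraries left out -0.011 to 0.061. For H19Ter+neo against H19Ter it was -0.0045 with the same total, -0.0044 with the trend removed and -0.079 without those libraries, and with single libraries left out -0.052 to 0.178. Dlk1 gained a call between the mutants without H19Ter replicate 4 (-0.71).

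Between the mutants, the 4 members called became 2 with the same total, 2 with voom, 1 without the variance trend, 2 with the GC and length trend removed, 1 without the libraries highest in somatic markers, and 1 to 3 with single libraries left out. Neighbours called in H19Ter against WT were 15, with voom 9 and with single libraries left out 4 to 16, and between the mutants 13, without the marker-high libraries 6 and with single libraries left out 5 to 14. Listed genes called in H19Ter against WT were 26, without the variance trend 11 and with single libraries left out 10 to 27, and between the mutants 17, then 7, without the marker-high libraries 8, and with single libraries left out 6 to 17. There, the same total gave 20.0% of called listed genes higher and 50.0% of called members, against 35.3% and 75.0%. All genes called in H19Ter against WT were 5187, with voom 3092, without the trend 2858 and with single libraries left out 1408 to 5870, and between the mutants 5717, without the marker-high libraries 2550 and with single libraries left out 2326 to 5404. Voom on the recovered read pairs called 10663 genes in H19Ter+neo against WT, where the main fit called 11231, and 5214 between the mutants. The mean WT ratio of Dlk1 to Meg3 was -2.68 with thinned libraries, against -2.67.

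No paired analysis was possible because the groups share no replicate numbers. Depth limits Gpr1, Mir341, Mir1188, Gm24564, Platr12, Ctsh and Dytn, each with under 20 read pairs in each WT library, and H19Ter+neo was sequenced more deeply than the other groups.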
